A study of Mus musculus with 6 samples.

Results

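The STAT genes encode transcription factors that carry cytokine and interferon signals from receptors at the cell surface to the nucleus. Stat2, Stat3, Stat4, Stat5a, Stat5b and Stat6 were chosen by name, and they are 6 of the 22180 genes that could be tested. Their RNA was measured in mouse CD8+ T cells on whole-transcript arrays, each gene by 1 probe set. Other genes of the family were not analysed here.

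A cytokine brings its receptor chains together, the Janus kinases (JAKs) bound to those chains phosphorylate a STAT, and STAT dimers then bind DNA. In T cells, STAT5 proteins act downstream of interleukin-2, interleukin-7 and interleukin-15, STAT3 downstream of interleukin-6, interleukin-10 and interleukin-21, STAT4 downstream of interleukin-12, STAT6 downstream of interleukin-4, and STAT2 downstream of type I interferon. CIS and some of the SOCS proteins are feedback inhibitors that STATs induce. The arrays measure RNA, so they carry no information on STAT phosphorylation or protein.

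The study set 3 arrays of CD8+ T cells labelled Dot1l knockout against 3 arrays of CD8+ T cells labelled wild type, all from C57BL/6 mice. Dot1l encodes a methyltransferase of histone H3. The knockout came from a floxed Dot1l allele combined with Cre driven by the CD4 promoter, and this promoter works in thymocytes that go on to both the CD4 and CD8 lineages. The labels leave unsaid whether wild type mice carried Cre or the floxed allele, how old the mice were, and whether each array was a separate animal. The p-values therefore measure only the spread between these arrays, which may be technical. Cells came from peripheral lymph nodes and spleen and were enriched with a magnetic kit.

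Values are log2 expression levels after RMA, the authors' array normalization, and a difference is the mean of the knockout arrays minus the mean of the wild type arrays. A gene passed at a Benjamini-Hochberg adjusted p under 0.05 in limma, a linear model fitted to all 22180 genes. In that fit 5.50% of genes passed, 4.30% as higher and 1.20% as lower in knockout arrays, and in 23.5% of genes the 3 knockout and 3 wild type values did not overlap. Of the genes that passed, 954 were higher and 266 lower, a split that was 625 and 470 after another quantile normalization. Dot1l RNA itself was 7.30 ± 0.04 in knockout and 7.20 ± 0.25 in wild type arrays (SD, n = 3 each, as for all values below; adjusted p = 0.765). The labels do not name the exon that the floxed allele loses, so this probe set does not check the labels. At the level of markers, all 10 measured CD8 T cell markers averaged above 3.84, the level below which 95% of olfactory and vomeronasal receptor genes lay, with Cd8a at 10.95 in knockout and 11.12 in wild type arrays.

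Markers of other cells also differed between the groups. Of 7 measured natural killer cell markers 3 rose, Gzma by 2.08, Eomes by 1.27 and Tyrobp by 0.43. Ncr1, Klrb1c, Klre1 and Fcer1g did not pass (limma adjusted p = 0.0719, 0.151, 0.364 and 0.966). Eomes averaged 8.29 in wild type arrays. The mean level of the list was 5.93 to 6.05 in knockout arrays and 5.07 to 5.36 in wild type arrays. Of 11 B cell markers 3 rose and Ighm fell, with list means of 5.17 to 5.31 in knockout and 4.84 to 5.03 in wild type arrays. The counts were 4 higher of 11 for dendritic cells, 2 higher of 13 for myeloid cells and 5 higher of 20 for immediate early genes. Of all genes, 4.30% passed as higher. Of 7 markers of CD4 and regulatory T cells, 2 rose and 1 fell, and none of the measured plasma cell, erythroid or stromal markers passed in limma, where 2, 0 and 1 were higher and 1, 0 and 0 lower at an unadjusted p under 0.05. At that threshold 11.2% of all genes were higher and 6.83% lower. Of 10 measured CD8 T cell markers 1 fell, 0 rose and 9 did not pass, beside 1.20% lower of all genes. The marker that fell was Cd5, a co-receptor, which averaged 8.65 in knockout and 9.66 in wild type arrays. Without overlap, 2 of the 10 were higher in knockout arrays (Thy1 and Cd2) and 2 lower (Cd5 and Cd3e). The shares of all genes were 13.7% and 9.78%. A block of 5333 unnamed probe sets also read higher in knockout arrays, with array medians of 4.12 to 4.34 against 3.50 to 3.80 in wild type arrays. The block holds the unnamed probe sets numbered below the lowest numbered probe set with a gene name. Over all 16010 unnamed probe sets the median difference was 0.05. The part of these shifts in the results below was not tested, and in bulk RNA a change in the share of a cell type cannot be told apart from a change in RNA per cell.

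Stat5b was the STAT gene that fell in the knockout arrays. It encodes one of the STAT5 proteins, which relay signals of the common gamma chain cytokines that sustain CD8 T cells. Its level was 7.52, 7.45 and 7.33 in the knockout arrays, against 8.05, 8.05 and 8.21 in the wild type arrays. The groups were separated by a gap of 0.53, which is larger than the range within either group, 0.18 in knockout and 0.16 in wild type arrays. The mean was 7.43 ± 0.09 in knockout and 8.10 ± 0.09 in wild type arrays, a log2 difference of -0.67 (SE 0.10, 95% interval -0.90 to -0.43, limma adjusted p = 0.00572), or 1.59-fold lower. Dropping any single array kept the Stat5b call, with adjusted p up to 0.0368 and differences between -0.71 and -0.62. With the array median of the unnamed block as a covariate, chosen after seeing the data, Stat5b differed by -0.61 (SE 0.285). It did not pass in that limma fit (adjusted p = 0.414), and 5 of all genes did. The covariate does not overlap between the groups, so the fit could hardly separate it from the group difference.

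Stat5a, its close paralogue, was lower in each knockout array than in any wild type array, but it did not pass. It read 7.24, 7.26 and 7.37 in knockout arrays and 7.57, 7.52 and 7.89 in wild type arrays. The means were 7.29 ± 0.07 in knockout and 7.66 ± 0.20 in wild type arrays, a difference of -0.37 (SE 0.12, 95% interval -0.64 to -0.09 before adjustment for the number of genes, limma adjusted p = 0.139). Wild type replicate 3 stood highest, and dropping it gave -0.26.

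Whether the Stat5 genes differed from each other in their response was tested on the level of Stat5b minus the level of Stat5a in each array. That quantity was 0.28, 0.19 and -0.04 in knockout arrays and 0.48, 0.53 and 0.32 in wild type arrays, so the groups did not overlap. Its mean differed by -0.30 between knockout and wild type arrays (exact two-sided permutation test over 20 splits, p = 0.10). With 3 arrays against 3 this p of 0.10 is the smallest the permutation test can give, so that test could not pass, and it leaves unsettled whether Stat5b fell further than Stat5a.

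**Figure D1:**
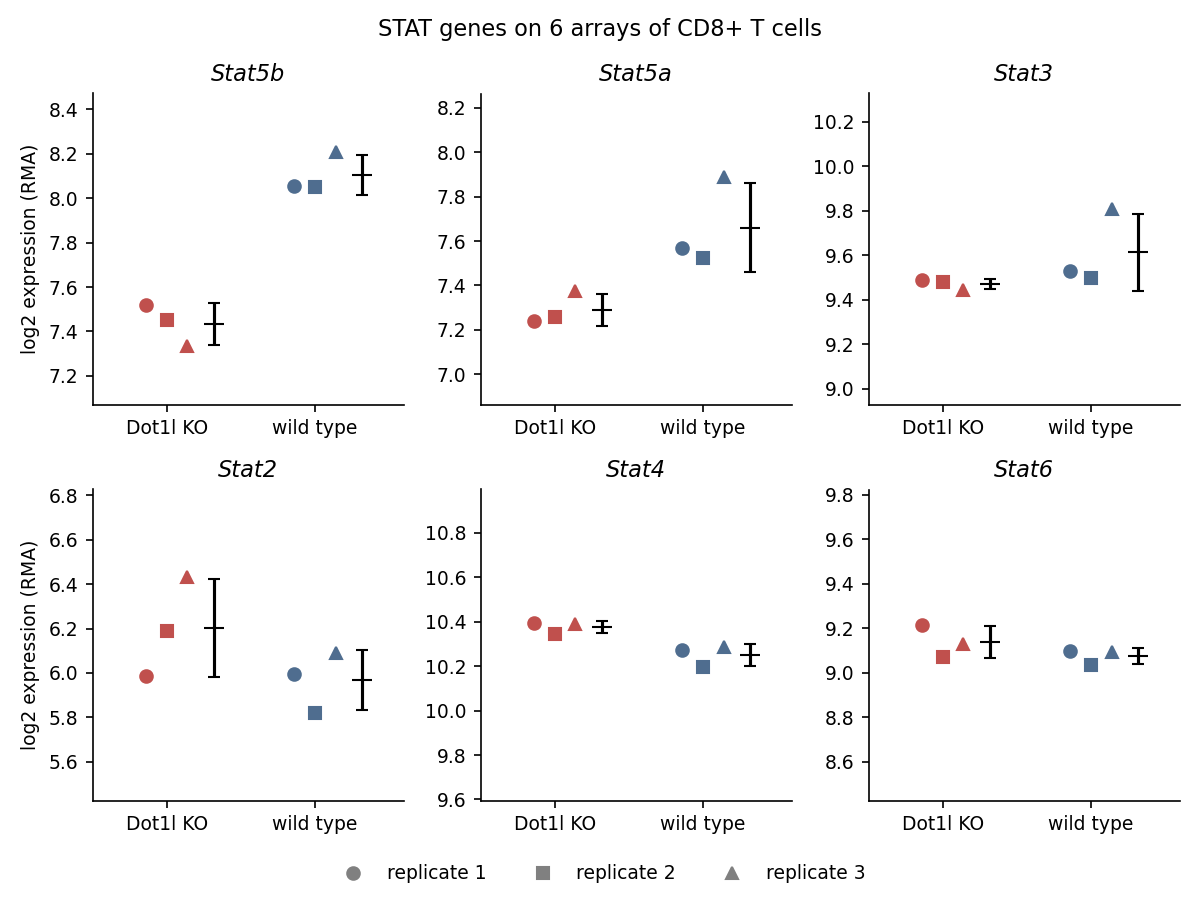
Log2 expression (RMA, vertical axes, each spanning the same width) of the 6 STAT genes in Dot1l knockout (left, red) and wild type (right, blue) arrays. Each symbol is 1 array, its shape gives the replicate number, and black bars are the mean ± SD of 3 arrays. The Stat5b groups lie 0.53 apart, whereas the Stat2 and Stat6 groups overlap.

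The Stat5 genes and Stat3 follow each other on chromosome 11 in the RefSeq annotation (GRCm38.p6), with Stat5b and Stat3 on the minus strand and Stat5a on the plus strand. RefSeq promoter windows were available for 6 members, 9 windows in all, and the 250 bases before each start were compared between them. The longest similarity lay between the windows before the downstream annotated starts of Stat5a and Stat5b, where 49 of 55 bases were identical without a gap. These stretches are shown because they are the promoter sequence that the paralogues share, with the 6 differing bases in capitals. The Stat5a stretch is at chr11:100860418-100860472 on the plus strand and the Stat5b stretch at chr11:100822573-100822627 on the minus strand.
Stat5a: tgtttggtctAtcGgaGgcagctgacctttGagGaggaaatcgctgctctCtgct
Stat5b: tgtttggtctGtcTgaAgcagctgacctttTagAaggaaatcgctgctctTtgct
No other pair of member windows aligned over more than 33 bases. The window before the upstream start of Stat5b was 82.0% G and C with 40 CpG dinucleotides, and the other member windows ranged from 44.0% to 68.0%, around a median of 52.4% over all windows. The arrays do not say which start was used.

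Stat3, the STAT of interleukin-6 and interleukin-10 family signals, did not pass. It read 9.49, 9.48 and 9.45 in knockout arrays and 9.53, 9.50 and 9.81 in wild type arrays. The groups did not overlap, but the gap between them was 0.0092 and wild type replicate 3 stood above the rest of its group. The means were 9.47 ± 0.02 in knockout and 9.61 ± 0.17 in wild type arrays (difference -0.14, SE 0.11, 95% interval -0.40 to 0.11, limma adjusted p = 0.581), and dropping wild type replicate 3 gave -0.04.

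Stat2 forms a complex with a STAT partner and Irf9 that binds interferon-stimulated response elements. Its level varied more among the knockout arrays than that of any other member, with 5.99, 6.19 and 6.43 in knockout arrays and 6.00, 5.82 and 6.09 in wild type arrays. The groups overlapped. Stat2 averaged 6.20 ± 0.22 in knockout and 5.97 ± 0.14 in wild type arrays, a difference of 0.23 that did not pass (SE 0.13, 95% interval -0.07 to 0.54, limma adjusted p = 0.424). After another quantile normalization it was 0.07.

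Stat4, which transmits interleukin-12 signals, read 10.39, 10.34 and 10.39 in knockout arrays and 10.27, 10.20 and 10.29 in wild type arrays. Every knockout value was above every wild type value, by a gap of 0.06. The means were 10.38 ± 0.03 in knockout and 10.25 ± 0.05 in wild type arrays, and the difference of 0.12 did not pass (SE 0.09, 95% interval -0.09 to 0.34, limma adjusted p = 0.561). Stat6, the STAT of interleukin-4, read 9.21, 9.07 and 9.13 in knockout arrays and 9.10, 9.04 and 9.09 in wild type arrays, and the groups overlapped. Its difference was 0.06 (SE 0.10, 95% interval -0.16 to 0.28, limma adjusted p = 0.805).

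Among the 6 members, 1 fell, 5 did not pass and 0 rose, also at an unadjusted p under 0.05, where 0 were higher and 2 lower (limma), beside 11.2% higher and 6.83% lower of all genes. The fallen share of 1 in 6 stands beside 1.20% of all genes. That share includes genes at background level, whereas all 6 members averaged above the background level of 3.84 in both groups. When the 11090 genes above the 50th percentile of level were fitted alone, 366 passed as lower and 1171 as higher. The groups did not overlap for 4 members, lower in knockout arrays for Stat5b, Stat5a and Stat3 and higher for Stat4, beside 9.78% of all genes lower, 13.7% higher and 23.5% in either direction. The median difference of the members was -0.04, and that of all genes -0.01. Wild type replicate 3 was the highest array of its group for 5 of 6 members, all but Stat6, whereas it was highest for 29.9% of all genes. Wild type replicate 2 was the lowest of its group for each member, an order that was not counted over all genes. The array medians of wild type replicates 1, 2 and 3 were 3.71, 3.69 and 3.74. The median SD over all genes was 0.12 in knockout and 0.15 in wild type arrays, so the spread of 0.22 for Stat2 in knockout arrays and of 0.20 for Stat5a in wild type arrays lay above it.

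Promoter windows of the members were searched for the motifs that STAT complexes are known to bind, on both strands and in the 250 bases before each start. The gamma-activated site was written as TTCNNNGAA, which is its own reverse complement, and the interferon-stimulated response element as GAAA and GAAA with any 2 bases between them. The response element was found in 2 of the 9 windows, 1 of Stat2 and 1 of Stat4, and it occurs in 2.98% of all 32851 windows. The matches are shown with their flanks because Stat2 and Stat4 belong to the interferon and interleukin-12 arms described below, and the match is in capitals. The Stat2 stretch is at chr10:128270251-128270310 (GRCm38.p6, plus strand), its match beginning 222 bases before the start and read on the opposite strand. The Stat4 stretch is at chr1:52008118-52008177 (plus strand), its match beginning 97 bases before the downstream annotated start.
Stat2: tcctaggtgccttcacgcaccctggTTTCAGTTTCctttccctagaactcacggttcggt
Stat4: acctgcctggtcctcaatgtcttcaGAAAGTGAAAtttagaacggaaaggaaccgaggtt
The gamma-activated site was in 7.02% of all windows, and its letters were not in the windows of the members. A match describes letters only, and factor binding was not measured.

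Receptor chains that feed STATs changed in both directions. Of 21 measured chains, 7 rose, 3 fell and 11 did not pass, beside 4.30% higher and 1.20% lower of all genes, with a median difference of 0.16. The count of rises was 3 without knockout replicate 1, 3 without knockout replicate 2, 4 without knockout replicate 3 and 4 after another quantile normalization. Genes named from here on were the 4 of each list with the smallest p, except where the text says that a gene was chosen later.

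Upstream of STAT4, Il12rb2, the signalling chain of the interleukin-12 receptor, read 7.53, 7.47 and 7.61 in knockout arrays, against 4.86, 4.44 and 4.89 in wild type arrays. It was 6.99-fold higher in knockout arrays (log2 2.81, SE 0.14, limma adjusted p = 1.54e-05), with no overlap. Its partner chain gene Il12rb1, chosen after its values were seen, also rose (0.54, SE 0.10, adjusted p = 0.0154). The Il12rb1 call was lost on dropping knockout replicate 1 or 2 or wild type replicate 3 (adjusted p = 0.0697, 0.0570 and 0.0524) or after another quantile normalization (0.335, adjusted p = 0.144).

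Upstream of STAT3, chains moved apart. Il6ra, the chain that binds interleukin-6, was 8.09, 8.07 and 8.02 in knockout arrays and 9.33, 9.43 and 9.44 in wild type arrays, a difference of -1.34 (SE 0.10, limma adjusted p = 7.42e-05). Il6st, which encodes the signalling chain gp130 and was chosen after its values were seen, fell by 0.64 on the log2 scale (adjusted p = 0.0161). The call was lost on dropping knockout replicate 1 or 3 or wild type replicate 1 or 3 (adjusted p = 0.0659, 0.0637, 0.0501 and 0.0627). Il10ra, the ligand-binding chain of the interleukin-10 receptor, was 7.16, 6.95 and 7.22 in knockout arrays and 5.83, 5.45 and 5.59 in wild type arrays, and rose by 1.49 (SE 0.13, limma adjusted p = 0.000232). Il10rb, its partner chain and also chosen later, rose by 0.68 (SE 0.10, adjusted p = 0.0039).

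Among the interferon receptor chains, Ifngr2 of the interferon-gamma receptor fell. It read 7.59, 7.90 and 8.14 in knockout arrays and 9.06, 9.17 and 9.20 in wild type arrays (difference -1.27, SE 0.14, limma adjusted p = 0.00096). The partner chain gene Ifngr1, chosen later, read 10.68 in knockout and 10.70 in wild type arrays and did not pass (-0.02, limma adjusted p = 0.952). Ifnar2 of the type I interferon receptor, chosen later, rose by 0.45 (SE 0.11, adjusted p = 0.0429), a call that was lost in 5 of the fits that left out 1 array, with adjusted p of 0.104 to 0.146, and held without wild type replicate 2. It was also lost after another quantile normalization (adjusted p = 0.0614) and median centring (0.0915). Its partner Ifnar1, also chosen later, read 9.10 in knockout and 9.12 in wild type arrays and did not pass (-0.02, adjusted p = 0.951).

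Upstream of STAT5, Il2rb and Il2ra rose, and Il2rg, the common gamma chain gene, was not among the tested genes. Il2rb, the shared beta chain of the interleukin-2 and interleukin-15 receptors, was chosen later and rose by 0.55 (SE 0.10, adjusted p = 0.0122). Without knockout replicate 1, 2 or 3 its adjusted p was 0.0561, 0.0552 and 0.0535. Il2ra, the alpha chain of the interleukin-2 receptor, averaged 4.97 ± 0.08 in knockout and 4.28 ± 0.26 in wild type arrays (0.69, SE 0.14, adjusted p = 0.0194), and lost its call on dropping knockout replicate 1, 2 or 3 (0.0837, 0.0621 and 0.0707) or with another quantile normalization (0.54, adjusted p = 0.0559). Il7r, the interleukin-7 receptor and also chosen later, read 11.31 in knockout and 10.98 in wild type arrays and did not pass (0.32, adjusted p = 0.16).

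Of the Janus kinases, Jak2 rose and Jak1 and Tyk2 did not pass, in 3 measured of 4 listed, beside 4.30% higher of all genes. Jak3, the remaining listed kinase, was not among the tested genes. Jak2, used by interleukin-12 and interferon-gamma receptors, was 9.67, 9.85 and 9.85 in knockout arrays and 9.22, 9.17 and 9.33 in wild type arrays (0.55, SE 0.10, limma adjusted p = 0.0154). Its groups did not overlap, but dropping knockout replicate 2 or 3 ended the call (adjusted p = 0.0748 and 0.0798). Jak1 differed by 0.20 (SE 0.09, adjusted p = 0.313) and Tyk2, a kinase of the type I interferon and interleukin-12 receptors, by 0.18 (SE 0.11, adjusted p = 0.428).

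**Figure D2:**
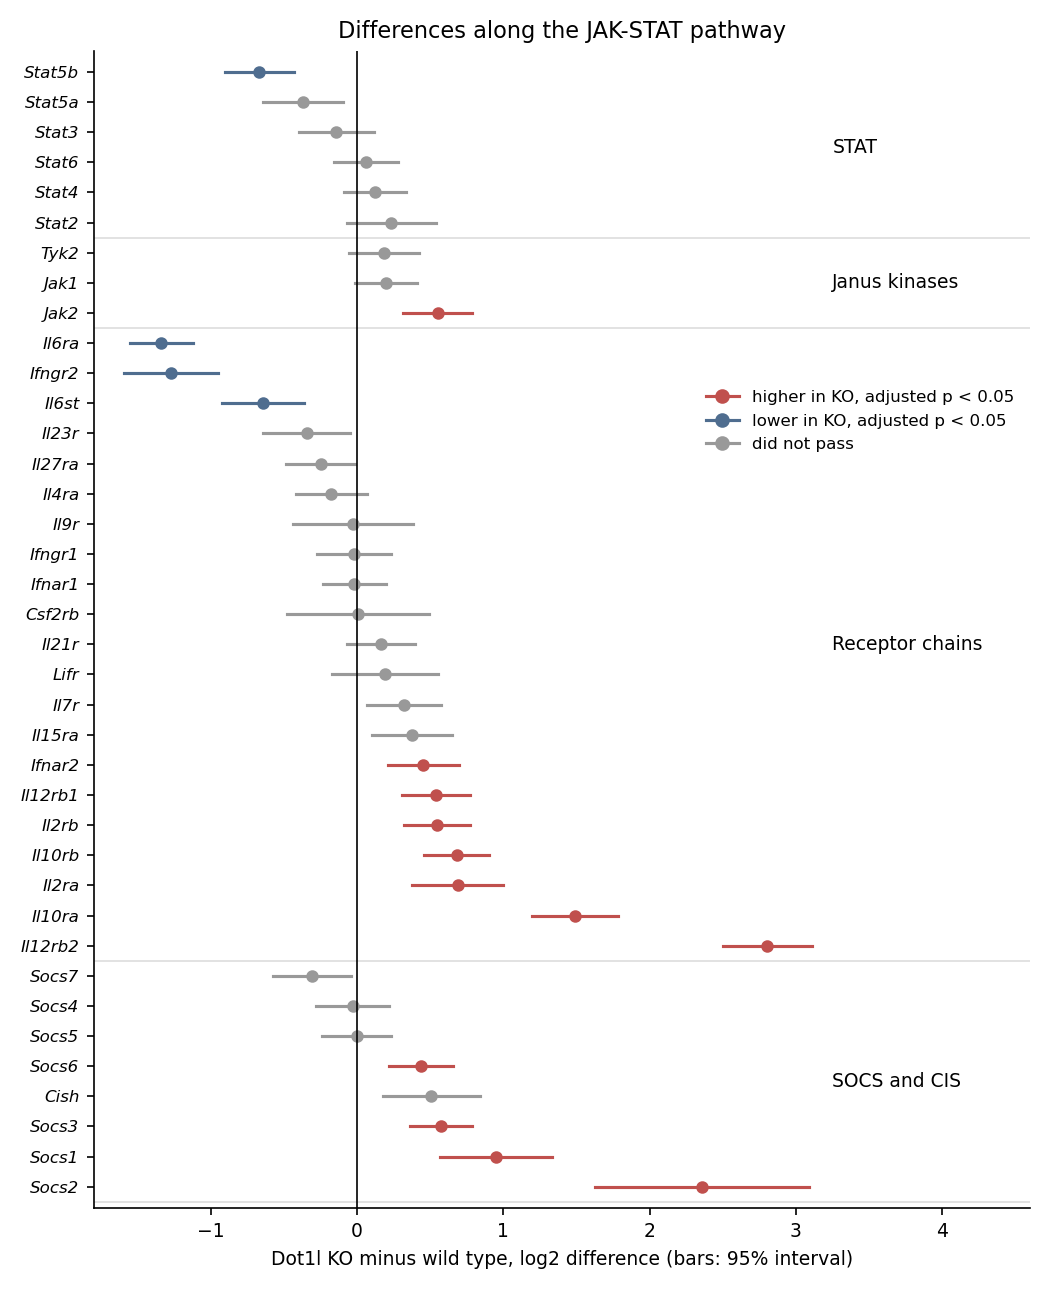
Log2 difference of knockout minus wild type arrays (horizontal axis) for the STAT genes and the measured Janus kinases, receptor chains and SOCS genes with CIS (Cish), each with its 95% interval before adjustment. Red genes were higher and blue genes lower at an adjusted p under 0.05, and grey genes did not pass. Among the members Stat5b passed, whereas 10 of 21 receptor chains and 4 of 8 SOCS family genes did, beside 5.50% of all genes.

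Genes of the SOCS family, some of them feedback inhibitors that STATs induce, were higher in part. Of 8 SOCS family genes, 4 rose and 4 did not pass, beside 4.30% higher of all genes, with a median difference of 0.47. Socs3, which restrains interleukin-6 signals to STAT3, was 8.34, 8.28 and 8.36 in knockout arrays and 7.75, 7.80 and 7.71 in wild type arrays (0.57, SE 0.10, limma adjusted p = 0.00783). Its other probe set differed by 0.38. Socs1, an inhibitor of interferon signals, averaged 5.60 ± 0.19 in knockout and 4.65 ± 0.32 in wild type arrays (0.95, SE 0.17, adjusted p = 0.0112). Without knockout replicate 1 or wild type replicate 3 its adjusted p was 0.0534 and 0.0511, and after another quantile normalization 0.0627.

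Socs2 and Socs6 were less certain. The Socs2 probe set in use rose by 2.36 (SE 0.32, adjusted p = 0.00293), but all its wild type values, 2.91, 2.28 and 2.95, lay below the background level of 3.84, and its other probe set read 3.86 ± 0.19 in knockout and 3.84 ± 0.24 in wild type arrays. Socs6 rose by 0.44 (SE 0.10, adjusted p = 0.0323) and held in 1 of the 6 fits that left out an array, the one without wild type replicate 1. It was also lost after another quantile normalization (0.27, adjusted p = 0.171), median centring (adjusted p = 0.0659) and trend and robust fitting (adjusted p = 0.0611). Dropping knockout replicate 1 or wild type replicate 3, or normalizing by another quantile method, left 2 rises in this list. Cish, a target of STAT5 that encodes CIS and was chosen later, read 4.71 in knockout and 4.20 in wild type arrays and did not pass (0.51, SE 0.15, adjusted p = 0.091).

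Protein inhibitors of activated STATs (PIAS genes) and phosphatases that act on STATs or JAKs did not pass in limma, with 0 of 11 called. At an unadjusted p under 0.05, 3 were higher and 0 lower, beside 11.2% and 6.83% of all genes, and with trend and robust fitting 1 passed. The members with the smallest p were the phosphatase genes Dusp2 (0.37, adjusted p = 0.0733) and Ptpn2 (0.24, adjusted p = 0.235), then Pias3 (0.35, adjusted p = 0.256) and the adaptor gene Sh2b3 (-0.17, adjusted p = 0.479). Dusp2 was the one that passed with trend and robust fitting (adjusted p = 0.0116), and it also passed among genes above the 50th percentile of level (adjusted p = 0.0337).

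Of 11 partners and co-activators, 10 did not pass and 1 rose, beside 4.30% higher of all genes. The gene that rose was Nmi, which encodes a STAT-interacting protein. It averaged 8.51 ± 0.16 in knockout and 8.02 ± 0.03 in wild type arrays (0.49, SE 0.11, adjusted p = 0.0345), and it passed without knockout replicate 1 but not without any other single array (adjusted p from 0.0532 to 0.148). The Nmi call was also lost after another quantile normalization (0.0533) and median centring (0.0535). Irf9, the DNA-binding partner of STAT2, read 8.23, 8.21 and 8.18 in knockout arrays and 8.05, 8.06 and 8.07 in wild type arrays. The groups did not overlap, but the difference of 0.14 did not pass (SE 0.09, adjusted p = 0.476). The acetyltransferase gene Crebbp (0.27, adjusted p = 0.268) and the phosphatase gene Ptprk (-0.32, adjusted p = 0.241) did not pass.

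Genes known as targets of each STAT were set beside the STAT genes, from lists written with earlier results of these data in view. The lists share genes with each other and with the receptor and SOCS lists, among them Il12rb2, Socs1, Socs2, Socs3 and Il2ra. They also share genes with the marker lists. Fos was counted among the immediate early genes and Il2ra among the markers of CD4 and regulatory T cells. When the 11090 genes above the 50th percentile of level were fitted alone, 1171 passed as higher. For STAT2 and interferon, 21 of 22 measured targets rose and 1 did not pass, beside 4.30% higher of all genes. The median difference of the targets was 1.59, while Stat2 differed by 0.23 and did not pass. Irf7, an interferon regulatory factor, was 9.47, 9.75 and 9.82 in knockout arrays and 7.67, 7.79 and 7.62 in wild type arrays (1.99, SE 0.12, limma adjusted p = 3.74e-05). Oasl2 rose by 2.41 (SE 0.15), the nucleotide kinase gene Cmpk2 by 2.14 (SE 0.16) and the RNA sensor gene Ifih1 by 1.90 (SE 0.15), with adjusted p of at most 0.000134. In Irf7, Oasl2, Cmpk2 and Ifih1, as in Stat2 and Stat5a, knockout replicate 1 was the lowest of its group. The share of all genes with this order was not counted.

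For STAT4, 8 of 11 targets rose and 3 did not pass, beside 4.30% higher of all genes. The median of the targets was 0.61, while Stat4 differed by 0.12. Beside Il12rb2, the interleukin-18 receptor gene Il18rap rose by 1.07 (SE 0.14, adjusted p = 0.00203). The T-box factor gene Tbx21 averaged 7.02 ± 0.13 in knockout and 6.10 ± 0.16 in wild type arrays (0.93, SE 0.12, adjusted p = 0.00218), and Ifng, the gene of interferon-gamma, 5.78 ± 0.14 in knockout and 4.96 ± 0.09 in wild type arrays (0.82, SE 0.11, adjusted p = 0.00277). The count of rises was 5 without knockout replicate 1, 4 without knockout replicate 3 and 5 without wild type replicate 3. Of the 7 measured natural killer cell markers, Gzma, Eomes and Tyrobp rose in the same arrays and 4 did not pass, beside 4.30% higher of all genes. Whether these marker rises bear on the STAT4 targets was not tested.

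For STAT5, 4 of 15 targets rose and 11 did not pass, beside 4.30% higher of all genes. The median of the targets was 0.34, in the arrays where Stat5b fell. Pim1, a survival kinase, read 10.17, 9.95 and 9.96 in knockout arrays and 9.08, 9.26 and 9.35 in wild type arrays (0.79, SE 0.12, adjusted p = 0.00408), while its other, dim probe set differed by 0.21. Cdk6, a kinase of the cell cycle, rose by 0.60 (SE 0.12, adjusted p = 0.0231), and Socs2 and Il2ra are described above. Dropping knockout replicate 1, 2 or 3 or wild type replicate 3 ended the Cdk6 call (adjusted p = 0.0843, 0.0979, 0.0715 and 0.0575). The count of rises was 2 without knockout replicate 1, 2 or 3, and 7 with trend and robust fitting.

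For STAT3, 3 of 14 targets rose and 11 did not pass, beside 4.30% higher of all genes. The median of the targets was 0.17. Maf, a transcription factor gene, rose by 0.69 (SE 0.10, adjusted p = 0.00313), although the mean of its probe sets did not pass (0.40, adjusted p = 0.0759). The other Maf probe set averaged 2.92 in knockout and 2.82 in wild type arrays, below the background level of 3.84 in both groups. Fos rose by 0.63 (SE 0.10, adjusted p = 0.00572). The third was Socs3, and the nuclear receptor gene Rora did not pass (0.42, adjusted p = 0.0803), although it did among genes above the 50th percentile of level (adjusted p = 0.0423). Without wild type replicate 2 the count of rises was 5.

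For STAT6, 4 of 13 targets rose and 9 did not pass, beside 4.30% higher of all genes. The median of the targets was 0.22, while Stat6 differed by 0.06. Gata3, a transcription factor of T cells, read 7.54, 7.50 and 7.44 in knockout arrays and 6.54, 6.71 and 6.69 in wild type arrays (0.84, SE 0.10, adjusted p = 0.00136), and its other probe set differed by 0.42. Nfil3 rose by 0.94 (SE 0.12, adjusted p = 0.00158) and Epas1 by 1.11 (SE 0.20, adjusted p = 0.0116), and the Epas1 call was lost without knockout replicate 3 (adjusted p = 0.0568). Socs1, also in this list, is given above.

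**Figure D3:**
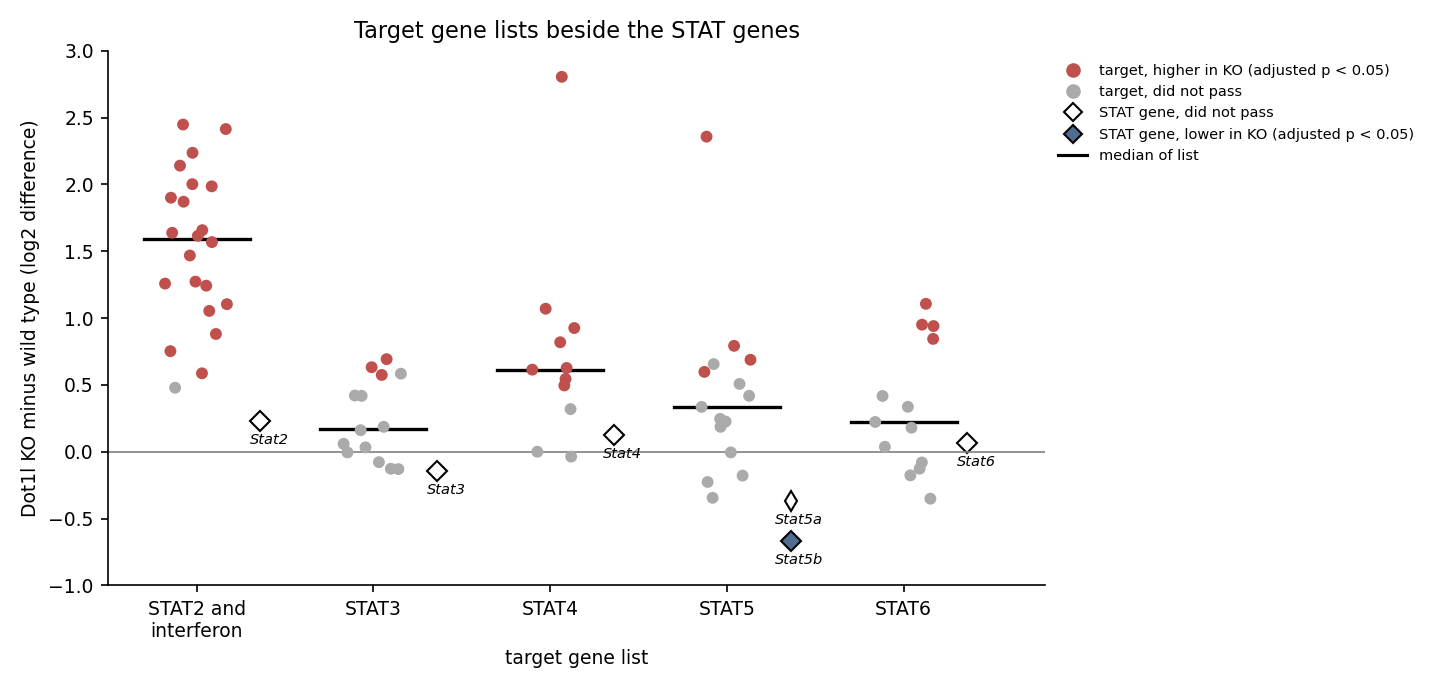
Log2 difference of knockout minus wild type arrays (vertical axis) for the measured genes of each STAT target list (circles, red where higher at an adjusted p under 0.05, grey where they did not pass), with list medians as black lines and the STAT genes as diamonds to the right. The medians range from 0.17 for STAT3 targets to 1.59 for STAT2 and interferon targets, while Stat5b sits at -0.67.

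Genes next to the members in the RefSeq gene order were read in the same fit. Around the Stat5b, Stat5a and Stat3 run, Ghdc differed by -0.21 (adjusted p = 0.5), Hcrt by -0.12 (adjusted p = 0.712), Cavin1 by -0.40 (adjusted p = 0.0852) and Atp6v0a1 by -0.22 (adjusted p = 0.394). None of these 4 passed in limma, and Hcrt, Cavin1 and Atp6v0a1 averaged under 4 in both groups. Next to Stat6, Nab2, a co-repressor of EGR factors, fell by 0.62 on the log2 scale (adjusted p = 0.0108, and 0.0581 without knockout replicate 3). The other measured neighbours of Stat6 did not pass, with Nxph4 at -0.33 (adjusted p = 0.247), Lrp1 at 0.02 (0.969) and Nemp1 at 0.02 (0.940). Before Stat4, Nabp1, which encodes a single-stranded DNA-binding protein, rose by 0.76 (SE 0.10, adjusted p = 0.0019). The 4 measured neighbours of Stat2 did not pass.

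The genes with the pattern most like that of Stat5b were found by the root mean square difference of levels over the 6 arrays, each gene taken relative to its own wild type mean. Among 17299 genes compared, the nearest were Zscan4d at 0.051, Plce1 at 0.053 and Akap8l at 0.057 log2 units. Akap8l was 7.49, 7.26 and 7.24 in knockout arrays and 7.88, 7.90 and 8.12 in wild type arrays, a difference of -0.64. Zscan4d and Plce1 averaged 2.96 and 3.06 in knockout arrays and 3.68 and 3.78 in wild type arrays, below the background level in both groups.

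**Figure D4:**
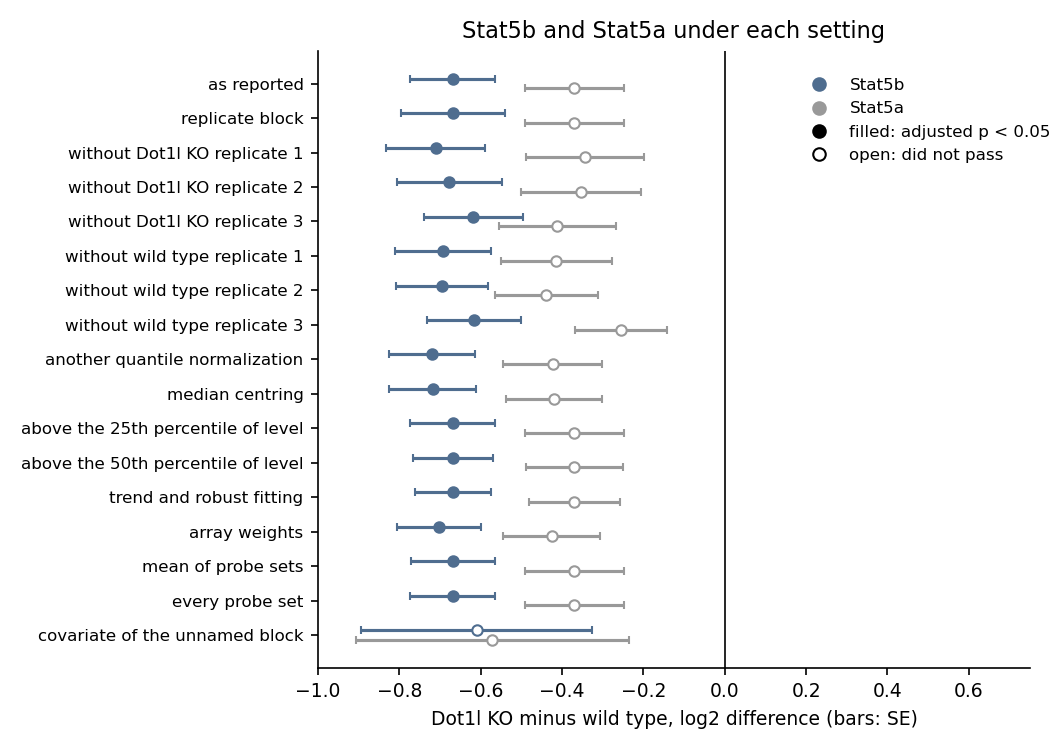
Log2 difference of knockout minus wild type arrays for Stat5b (blue) and Stat5a (grey) under each way of processing, with SE bars. Filled points passed at an adjusted p under 0.05 and open points did not. Stat5b lay between -0.72 and -0.62 and passed under 15 other ways of processing. With the covariate from the unnamed block, which does not overlap between the groups, Stat5b was -0.61 and did not pass. Stat5a passed under none of the settings shown.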

How the data were processed

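Total RNA of 6 CD8+ T cell samples was labelled with a whole-transcript kit and hybridised to Affymetrix arrays, per the labels' protocols. The deposited log2 values were made by the authors with RMA and R 3.1.1, as the submitters' processing notes list. No source used here gives its settings or a genome build. Array medians lay between 3.69 and 3.78, and with arrays their number limits the precision. Of 41345 probe sets, 23521 named 1 gene symbol, 1814 several and 16010 none. A gene with several probe sets kept its brightest by mean over the 6 arrays. The 22180 genes were fitted with limma 3.58.1 in R 4.3.3 (lmFit, eBayes), and p-values were adjusted by Benjamini-Hochberg. The code was tested on simulated data. Promoter sequences came from RefSeq (GRCm38.p6). Members and lists were chosen with earlier results of these data known. Named genes were Dot1l, the members, the Janus kinases, the 4 smallest p in each list, chromosome neighbours (2 on each side) and the 3 genes most like a member that passed, leaving out predicted genes, small RNAs, receptor segments and immunoglobulin genes. A covariate from the block of unnamed probe sets was added after seeing the data. Same-numbered replicates did not deviate together (r of -0.07, -0.16 and -0.07).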

Additional observations from a re-analysis of the deposited data

Results flagged for a closer look

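A block of 5333 probe sets without a gene name, set apart by their low probe set numbers, read higher in knockout arrays. Its median difference was 0.43 on the log2 scale, against 0.05 over all 16010 unnamed probe sets and -0.01 over the tested genes. The block drew attention as a signal outside the tested genes, and its part in the STAT results was not tested.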

How the results depend on the processing

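The 6 members kept their direction and their side of the threshold in all 90 refits under 15 other settings. Leaving out 1 array gave 0.12 to 0.34 for Stat2, -0.20 to -0.04 for Stat3, 0.10 to 0.14 for Stat4, -0.44 to -0.26 for Stat5a, -0.71 to -0.62 for Stat5b and 0.02 to 0.10 for Stat6. The count of all genes passing ranged from 615 to 1307, against 1220 with all arrays, when 1 array was left out, being 745, 696 and 615 without knockout replicate 1, 2 or 3 and 780 without wild type replicate 3, and pathway genes passing as higher ranged from 34 to 47 and as lower from 2 to 3. With the replicate number as a block, 912 genes passed and Stat5b still did (-0.67, adjusted p = 0.0233), while Cdk6, Il12rb1, Nmi, Socs6 and Ifnar2 lost their calls (adjusted p = 0.0506, 0.0518, 0.0750, 0.0969 and 0.105). The Stat5b minus Stat5a value was -0.37 to -0.21 with 1 array left out. Dot1l was -0.020 without wild type replicate 2, and -0.020 to 0.23 over all leave-outs. A covariate chosen after seeing the data, the array median of the unnamed block, does not overlap between the groups. With it 5 genes passed, 0 members fell, 0 pathway genes were called in either direction, Stat5b was -0.61 (adjusted p = 0.414), and Stat2 (-0.30), Dot1l (-0.45), Sh2b3 (0.13), Ptprk (0.36), Crebbp (-0.29) and Rora (-0.011) changed sign; the cause was not tested. Apart from that covariate, 16 of 44 named genes outside the family changed call or sign under one or more settings. Those settings were 2 other normalizations, level filters, trend and robust fitting, array weights, probe set choice, the block and leave-outs.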
